A study of Mus musculus with 2 samples.

Results

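Spi1, Irf8, Sall1, Maf, Mef2a, Mef2c, Irf5 and Bach1 encode transcription factors that set the identity or the state of microglia, the macrophages resident in brain and spinal cord, and of other myeloid cells. They were taken by symbol from the gene list of the deposited matrices, where each symbol had 1 row, and make up 8 of the 27998 genes listed. Their levels were followed across cell classes and between 2 single-cell RNA libraries of the mouse spinal cord that address the role of the transcription factor Runx1 in microglia.

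The tamoxifen library, labelled Runx1 knock-out, came from mice given tamoxifen at 1 mg per day, and the vehicle library, labelled wild type, from mice given vehicle. Both groups received 5 daily injections and were taken 4 weeks after the first. Both carried the same alleles, Cx3cr1-CreERT2-YFP::flxRunx1 on C57BL/6J, meaning that Cx3cr1 drives a tamoxifen-activated Cre and yellow fluorescent protein and that Runx1 is floxed. Cre at Cx3cr1 acts in other mononuclear phagocytes as well as in microglia, and effects of tamoxifen cannot be told apart from those of the deletion. Neither the age of the mice nor their number behind each library is given in the sources used here. Fluorescent cells were sorted and made into 10x Chromium 3′ libraries, in which each UMI (unique molecular identifier) stands for 1 captured RNA molecule. With 1 library per group no difference between groups could be tested, and all intervals below are 95% intervals and cover counting error alone.

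PU.1, the ETS-family product of Spi1, binds with IRF8 at many macrophage enhancers, and both act in the development of microglia. SALL1 and the bZIP factor c-MAF act on that base to keep the resting microglial programme, and MEF2 factors bind enhancers beside PU.1 in brain macrophages. IRF5 drives inflammatory genes and lies downstream of IRF8 in spinal microglia after nerve injury, while BACH1 pairs with small MAF proteins and represses heme and antioxidant genes until heme releases it. RUNX1, the targeted factor, is a regulator of Spi1 during blood cell development.

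Promoter sequences of Sall1, Mef2a and Bach1 are shown because they belong to genes with higher levels in microglia-like cells labelled knock-out, and that of Mef2c because it is the family partner of Mef2a and did not differ past 1.5-fold. Each is read 5′ to 3′ on its gene's strand in the RefSeq promoter table, build GRCm38.p6, and covers 220 bases that run from 250 to 31 bases before the annotated start. Capitals mark the letters GAGGAA, the core of sites bound by PU.1, on either strand.
Sall1, chr8:89044193-89044412, minus strand: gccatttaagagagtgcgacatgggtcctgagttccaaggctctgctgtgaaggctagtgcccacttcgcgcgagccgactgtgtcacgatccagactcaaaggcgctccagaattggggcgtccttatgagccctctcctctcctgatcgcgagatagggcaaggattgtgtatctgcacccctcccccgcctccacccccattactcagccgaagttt
Mef2a, chr7:67372889-67373108, minus strand: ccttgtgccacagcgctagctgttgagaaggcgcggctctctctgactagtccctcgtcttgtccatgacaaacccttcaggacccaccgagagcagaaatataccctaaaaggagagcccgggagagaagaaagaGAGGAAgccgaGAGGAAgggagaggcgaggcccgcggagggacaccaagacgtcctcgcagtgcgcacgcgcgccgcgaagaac
Bach1, chr16:87698704-87698923, plus strand: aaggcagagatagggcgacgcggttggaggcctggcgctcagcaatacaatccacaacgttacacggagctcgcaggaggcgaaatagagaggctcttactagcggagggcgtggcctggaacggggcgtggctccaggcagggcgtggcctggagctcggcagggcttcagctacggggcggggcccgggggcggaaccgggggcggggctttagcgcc
Mef2c, chr13:83503784-83504003, plus strand: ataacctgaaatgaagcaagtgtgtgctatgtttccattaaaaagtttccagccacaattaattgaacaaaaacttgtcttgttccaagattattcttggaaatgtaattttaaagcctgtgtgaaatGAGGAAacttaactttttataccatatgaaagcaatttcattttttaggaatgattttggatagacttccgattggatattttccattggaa
The table held 11 promoters of 6 of the 8 genes, and Spi1 and Maf were not among them. Mef2a held GAGGAA at 114 and at 103 bases before the start, and the Mef2c promoter shown held it at 122 bases. With a further promoter of Mef2c, 3 of the 11 promoters held it. Of all 32851 promoters of the same length, 20.4% held GAGGAA on either strand. None of the 11 promoters held TGTGGT, a RUNX core, which 12.7% of all promoters did, or the longer PU.1 site GAGGAAGT (2.04%). They likewise held no IRF repeat, 2 copies of GAAA with 2 bases between (2.63% of all promoters), no MAF site, TGCTGA followed directly by GTCA (0.113%), and no MEF2 core, CTA and TAG with 4 bases between (2.83%), on either strand. GAGGAAGT contains GAGGAA, and the shorter core was added after the sequences had been read. The base composition of the 4 promoters differed widely: G and C made up 30.5% of the Mef2c promoter, 57.7% for Sall1, 60.5% for Mef2a and 68.2% for Bach1, beside a median of 51.8% over all promoters.

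The library labelled knock-out held 2604 barcodes and 13075939 UMIs, against 4582 barcodes and 37446978 UMIs in the wild-type library, with medians of 3715.5 and 6376 UMIs per barcode. The 2 libraries shared 9 barcode sequences. Microglia-like cells numbered 1354 and 2187, endothelial-like cells 836 and 1638, pericyte or smooth muscle-like cells 141 and 198, erythrocyte-like cells 74 and 55 and ependymal-like cells 26 and 17 in the knock-out-labelled library and the wild-type library. A further 139 and 430 cells formed an unnamed cluster with microglial and endothelial markers and high UMI totals, with Gzma, Ccl5 and Nkg7 as its leading genes. The 12 microglia markers summed to 33856 and 32375 CPM (UMIs per 1000000 UMIs of the same cells) in microglia-like cells of the knock-out-labelled library and the wild-type library. Cluster 2 held 1349 of the microglia-like cells labelled knock-out, and cluster 0 held all 2187 labelled wild type. Endothelial-like cells were divided in the same way, with 818 in cluster 3 and 1637 in cluster 1.

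Runx1 itself was at 181 CPM (170 to 192) in microglia-like cells of the knock-out-labelled library, against 92.7 CPM (88.0 to 97.6) in the wild-type library. It was thus higher, not lower, under the knock-out label. Only 3′ ends of transcripts were counted and no label says which exons are floxed, so these UMIs do not check the deletion. Each difference below is one between libraries with these labels.

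Of the 8 genes, 4 were past 1.5-fold higher in microglia-like cells of the knock-out-labelled library, namely Sall1, Maf, Mef2a and Bach1, and 0 were past 1.5-fold lower. Over the 5756 genes with at least 20 CPM in either library, 8.1% were past 1.5-fold higher and 12.5% past 1.5-fold lower. The median log2 ratio was 0.53 over the 8 genes and -0.04 over all 5756. Other genes of microglia leaned the same way: of 402 other genes that microglia-like cells held in each library at 2 or more times the endothelial-like and the pericyte-like level, 23.4% were past 1.5-fold higher and 1.74% past 1.5-fold lower, with a median of 0.30. Where 1 library sufficed, which lets a gene in through the library where it is high, the shares were 28.3% and 2.16% of 833 genes. Of the 8 genes, 5 had such a microglia-enriched level in each library, all but Mef2a, Mef2c and Bach1.

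RNA of other cells differed between the same microglia-like cells. All 9 endothelial markers were lower in microglia-like cells labelled knock-out, with a sum of 2131 CPM against 6464 CPM in the wild-type library, and none was at 0. In the 677 and 1093 microglia-like cells with the lowest share of endothelial marker UMIs, the same 4 genes stood past 1.5-fold higher beside 9.13% of all genes, with log2 ratios of 0.93 for Sall1, 0.65 for Maf, 0.74 for Mef2a and 0.85 for Bach1. With free RNA subtracted, an upper estimate of 20.1% of the UMIs of microglia-like cells labelled knock-out and 50.3% of those of the wild-type library, the count was 2, beside 11.8% higher and 6.62% lower of all genes: Mef2a (0.63) and Bach1 (0.66) stayed past 1.5-fold, and Sall1 (0.56) and Maf (0.36) did not. With levels taken relative to the 833 microglia-enriched genes alone, an alternative chosen after seeing the data, 0 of the 8 genes were past 1.5-fold, beside 2.99% higher and 27% lower of all genes. The median of all genes then stood at -0.32, and the 4 genes had log2 ratios of 0.35 (Maf), 0.46 (Mef2a), 0.50 (Sall1) and 0.58 (Bach1). Relative to the 402 genes enriched in each library the count was likewise 0, beside 2.69% higher and 29.1% lower of all genes.

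**Figure D1:**
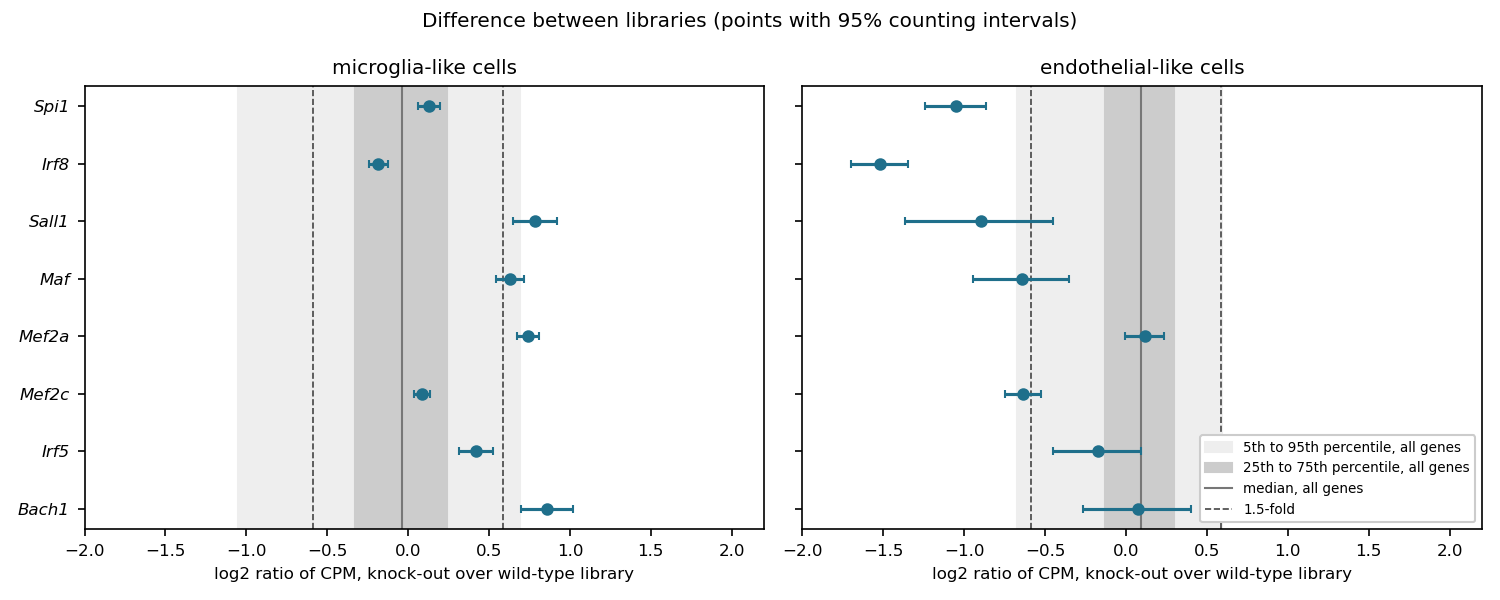
Log2 ratio of CPM, knock-out over wild-type library, for the 8 genes in microglia-like (left) and endothelial-like cells (right); bars are 95% counting intervals, grey bands give percentile ranges over all genes with at least 20 CPM and dashed lines mark 1.5-fold. In microglia-like cells Bach1 (0.86), Sall1 (0.79), Mef2a (0.74) and Maf (0.63) lie past the right dashed line, and in endothelial-like cells 5 of the 8 genes lie past the left one.

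The lineage factors Spi1 and Irf8 differed little in microglia-like cells, and in opposite directions. Spi1 (ENSMUSG00000002111, GRCm38 chromosome 2, 91082390 to 91115756, plus strand) had 2591 UMIs, a level of 421 CPM (405 to 438), in the knock-out-labelled library and 6096 UMIs, a level of 386 CPM (376 to 396), in the wild-type library. Its level was slightly higher in the knock-out-labelled library, with a log2 ratio of 0.13 (0.06 to 0.19). Irf8 (ENSMUSG00000041515, chromosome 8, 120736358 to 120756694, plus strand) had 3071 UMIs, a level of 499 CPM (482 to 517), in the knock-out-labelled library and 8968 UMIs, a level of 567 CPM (556 to 579), in the wild-type library. It was the only one of the 8 genes with a lower level there, at a log2 ratio of -0.18 (-0.24 to -0.12). The sign of Spi1 was not stable: it stood at -0.13 with free RNA subtracted and at -0.16 relative to the microglia-enriched genes, where Irf8 stood at -0.43 and -0.47. Irf8 lies inside Gm20388, a gene model on the same strand, so their counts may be shared.

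Both lineage factors had lower levels in the unnamed cluster and in pericyte or smooth muscle-like, erythrocyte-like, endothelial-like and ependymal-like cells than in microglia-like cells, and in all 5 the knock-out-labelled library stood below the wild-type library. Spi1 was at 205 and 260 CPM in the unnamed cluster of the knock-out-labelled library and the wild-type library, 102 and 172 CPM in pericyte or smooth muscle-like cells, 80.7 and 135 CPM in erythrocyte-like cells, 68.3 and 141 CPM in endothelial-like cells and 63.3 and 155 CPM in ependymal-like cells. Irf8 was at 282 and 390 CPM in the unnamed cluster, 108 and 254 CPM in pericyte or smooth muscle-like cells, 67.9 and 237 CPM in erythrocyte-like cells, 74.1 and 213 CPM in endothelial-like cells and 68.6 and 254 CPM in ependymal-like cells, again with the knock-out-labelled library before the wild-type library. Microglia-like cells stood above the unnamed cluster, and the unnamed cluster above the other 4 classes, with no overlap of intervals in either library. Among the other 4 classes the intervals overlapped, except that pericyte or smooth muscle-like cells stood above endothelial-like cells for both genes.

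**Figure D2:**
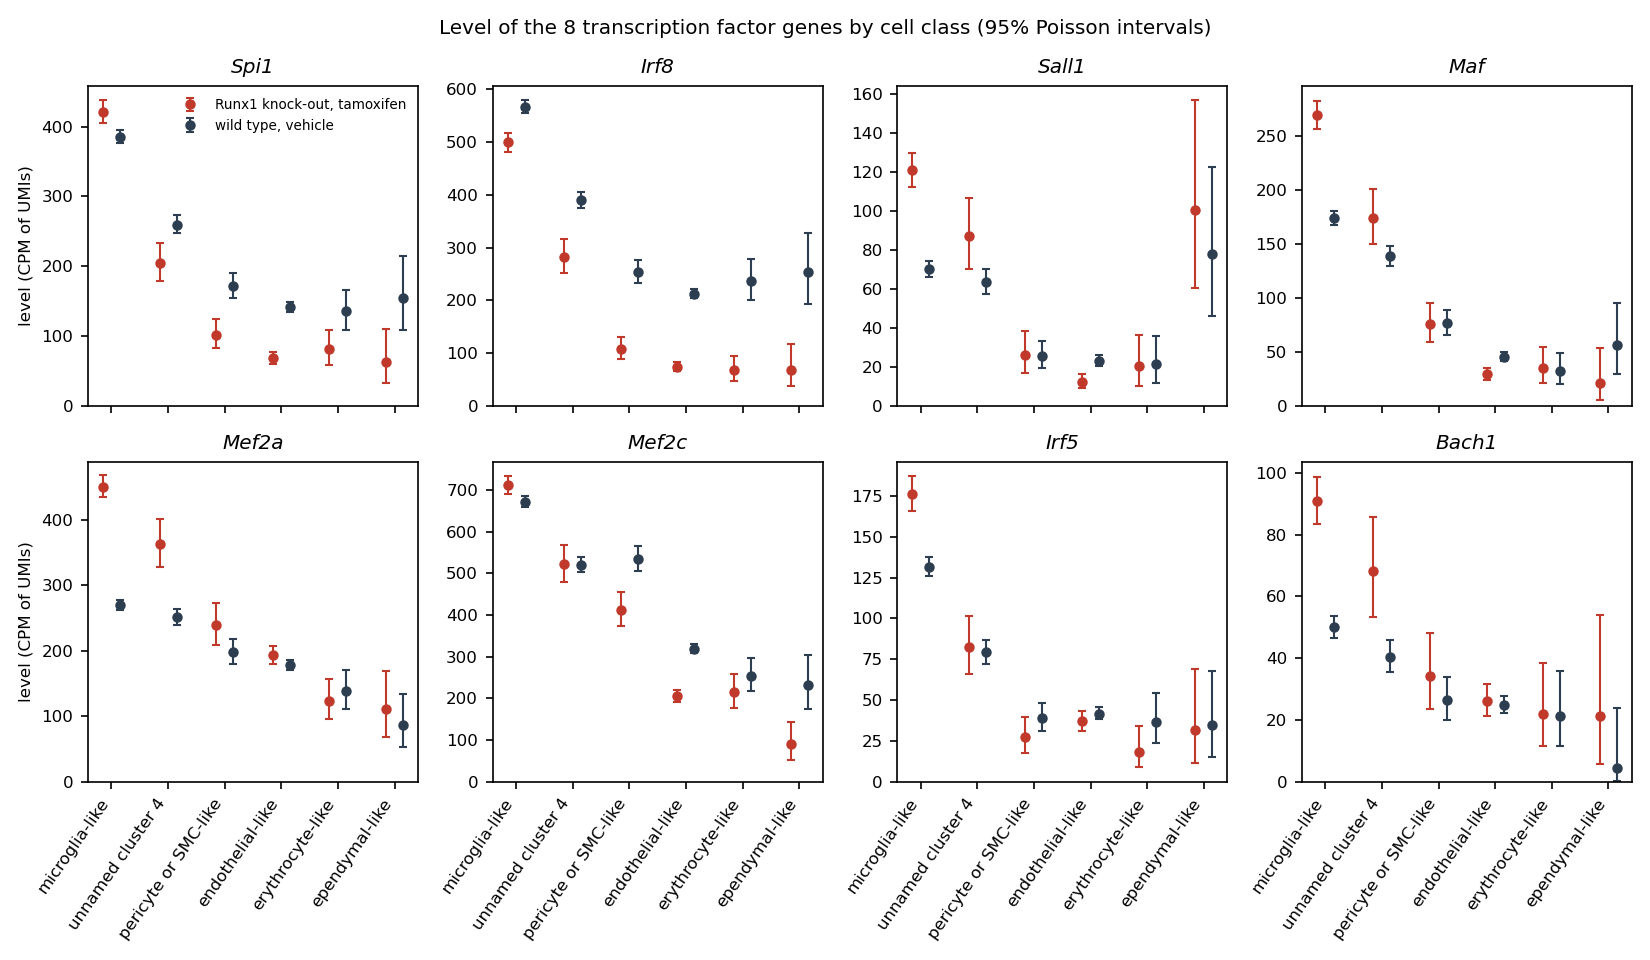
Level of each gene (CPM, linear axis from 0) in 6 groups of cells, with the knock-out-labelled library left of the wild-type library and 95% Poisson intervals. The panels of 7 genes are highest in microglia-like cells in both libraries; for Sall1 the ependymal-like cells, at 100.2 and 77.5 CPM, reach the microglia-like level, with wide intervals.

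Sall1 and Maf, the factors of the resting programme, were both higher in microglia-like cells of the knock-out-labelled library. Sall1 (ENSMUSG00000031665, chromosome 8, 89027235 to 89044162, minus strand), a zinc finger factor described as confined to microglia among brain macrophages, had 742 UMIs, a level of 121 CPM (112 to 130), in the knock-out-labelled library and 1106 UMIs, a level of 70.0 CPM (65.9 to 74.2), in the wild-type library. This is a log2 ratio of 0.79 (0.65 to 0.92), or 1.72-fold. Maf (ENSMUSG00000055435, chromosome 8, 115682942 to 115707794, minus strand), which encodes c-MAF, a factor of mature macrophages, had 1657 UMIs, a level of 269 CPM (257 to 283), in the knock-out-labelled library and 2752 UMIs, a level of 174 CPM (168 to 181), in the wild-type library. Its log2 ratio was 0.63 (0.54 to 0.72), so the lower end of its interval lay under 1.5-fold. The antisense gene Gm15655 overlaps Maf, and the sources used here do not give the strand setting of the counting.

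Sall1 was also present in ependymal-like cells, the ciliated lining of the central canal. In these it had 19 UMIs in 26 cells of the knock-out-labelled library, or 100.2 CPM (60.3 to 157), and 18 UMIs in 17 cells of the wild-type library, or 77.5 CPM (45.9 to 123). Those levels were 83.1% (49.7 to 131) and 111% (65.4 to 176) of the microglia-like level in the same library. The 12 microglia markers were at 9.83% to 22.6% of theirs in the knock-out-labelled library and at 19.5% to 54.0% in the wild-type library, so Sall1 stood above the whole range in both. In endothelial-like cells Sall1 was at 12.3 and 22.9 CPM, in pericyte or smooth muscle-like cells at 26.0 and 25.5 CPM and in erythrocyte-like cells at 20.2 and 21.3 CPM in the knock-out-labelled library and the wild-type library. The unnamed cluster held 86.9 CPM (70.2 to 107) and 63.4 CPM (57.2 to 70.1), and the second interval overlapped the microglia-like one (65.9 to 74.2). Oligodendrocyte-like cells had 0 UMIs in 8 cells of the knock-out-labelled library. In the wild-type library 18 such cells had 8 UMIs, or 60.2 CPM (26.0 to 119). Maf was at 174 and 139 CPM in the unnamed cluster, 75.9 and 76.8 CPM in pericyte or smooth muscle-like cells, 34.9 and 31.9 CPM in erythrocyte-like cells, 29.1 and 45.5 CPM in endothelial-like cells and 21.1 and 56.0 CPM in ependymal-like cells.

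The MEF2 pair parted in microglia-like cells. Mef2a (ENSMUSG00000030557, chromosome 7, 67231163 to 67372858, minus strand) had 2772 UMIs, a level of 451 CPM (434 to 468), in the knock-out-labelled library and 4266 UMIs, a level of 270 CPM (262 to 278), in the wild-type library. Mef2c (ENSMUSG00000005583, chromosome 13, 83504034 to 83667080, plus strand), a brake on inflammatory microglia, had 4380 UMIs, a level of 712 CPM (691 to 734), in the knock-out-labelled library and 10617 UMIs, a level of 672 CPM (659 to 685), in the wild-type library. Mef2a was thus 1.67-fold higher in the knock-out-labelled library, with a log2 ratio of 0.74 (0.67 to 0.81), while Mef2c differed by 0.08 (0.03 to 0.14). The sign of Mef2c turned, to -0.11 with free RNA subtracted and to -0.20 relative to the microglia-enriched genes. Mef2a and Lysmd4 overlap on opposite strands.

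Both MEF2 genes had high levels in vessel cells. In pericyte or smooth muscle-like cells Mef2a was at 239 CPM (209 to 272) in the knock-out-labelled library and 198 CPM (180 to 218) in the wild-type library, while Mef2c was at 413 CPM (373 to 455) and 534 CPM (504 to 565). The unnamed cluster held 523 CPM (480 to 568) of Mef2c in the knock-out-labelled library, above the pericyte class, and 521 CPM (502 to 539) in the wild-type library, where the intervals overlapped. In endothelial-like cells Mef2a was at 193 and 178 CPM and Mef2c at 205 and 319 CPM in the knock-out-labelled library and the wild-type library. For Mef2a the order from microglia-like over the unnamed cluster and pericyte or smooth muscle-like to endothelial-like cells was the same in both libraries, though in the wild-type library the intervals of microglia-like cells and the unnamed cluster overlapped, as did those of the pericyte and endothelial classes. Erythrocyte-like and ependymal-like cells were lower, with 123 and 111 CPM of Mef2a in the knock-out-labelled library and 138 and 86.1 CPM in the wild-type library. Mef2c was at 215 and 89.7 CPM in erythrocyte-like and ependymal-like cells of the knock-out-labelled library and at 254 and 233 CPM in those of the wild-type library.

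Irf5 and Bach1, the inflammatory and the heme-sensing factor, were both higher in microglia-like cells of the knock-out-labelled library, Bach1 past 1.5-fold. Irf5 (ENSMUSG00000029771, chromosome 6, 29526625 to 29541871, plus strand) had 1084 UMIs, a level of 176 CPM (166 to 187), in the knock-out-labelled library and 2082 UMIs, a level of 132 CPM (126 to 138), in the wild-type library. Its log2 ratio of 0.42 (0.31 to 0.53) lay above 0 and short of 1.5-fold, and stood at 0.12 with free RNA subtracted. Bach1 (ENSMUSG00000025612, chromosome 16, 87698945 to 87733346, plus strand) had 559 UMIs, a level of 90.9 CPM (83.5 to 98.8), in the knock-out-labelled library and 792 UMIs, a level of 50.1 CPM (46.7 to 53.7), in the wild-type library. At a log2 ratio of 0.86 (0.70 to 1.02), or 1.81-fold, it had the highest ratio of the 8 genes, though its interval overlapped those of Sall1, Maf and Mef2a. Irf5 and Tnpo3 overlap on opposite strands.

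Irf5 and Bach1 were lower in endothelial-like cells, pericyte or smooth muscle-like cells and the unnamed cluster than in microglia-like cells. Irf5 stood at 36.9 and 41.6 CPM in endothelial-like cells, 27.0 and 38.9 CPM in pericyte or smooth muscle-like cells and 82.3 and 79.1 CPM in the unnamed cluster of the knock-out-labelled library and the wild-type library. Bach1 stood at 26.1 and 24.8 CPM in endothelial-like cells, 34.3 and 26.4 CPM in pericyte or smooth muscle-like cells and 68.2 and 40.5 CPM in the unnamed cluster. In the unnamed cluster, which holds microglial and endothelial RNA together, the log2 ratios were 0.75 (0.36 to 1.14) for Bach1, 0.53 (0.36 to 0.69) for Mef2a, 0.46 (0.11 to 0.79) for Sall1 and 0.32 (0.09 to 0.56) for Maf. All 4 were smaller than in microglia-like cells and lay above 0.

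In the smallest classes the counts allowed little. Cycling cells, 13 in the knock-out-labelled library and 15 in the wild-type library, had 472 and 196 CPM of Mef2a from 44 and 30 UMIs, and their log2 ratio of 1.27 (0.57 to 1.99) was the only one of the 8 whose interval lay off 0. Irf8 was at 515 CPM (380 to 683) and 646 CPM (525 to 787) and Irf5 at 193 CPM (114 to 305) and 117 CPM (69.6 to 186) in these cells, with intervals that reached the microglia-like levels. The 4 and 18 border-associated macrophage-like cells, which were also led by the B cell genes Cd79a and Ly6d, had 708 and 291 CPM of Mef2a from 19 and 58 UMIs, 484 CPM (258 to 828) and 241 CPM (177 to 319) of Spi1 and 0 and 70.2 CPM of Bach1 from 0 and 14 UMIs. Their Sall1 was at 74.5 CPM (9.02 to 269) and 65.2 CPM (34.7 to 111), from 2 and 13 UMIs. Both intervals held the microglia-like level of the same library. Bach1 had 0 UMIs in oligodendrocyte-like cells of either library, 8 and 18 cells.

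In endothelial-like cells the direction was the other one. None of the 8 genes was past 1.5-fold higher in the knock-out-labelled library and 5 were past 1.5-fold lower, beside 5.23% and 6.03% of the 6286 genes with at least 20 CPM there. The median log2 ratio was -0.64 over the 8 genes and 0.09 over all genes. Irf8 was the lowest, at -1.52 (-1.70 to -1.35), followed by Spi1 at -1.05 (-1.24 to -0.86), Sall1 at -0.90 (-1.37 to -0.45), Maf at -0.64 (-0.94 to -0.35) and Mef2c at -0.63 (-0.75 to -0.53). The intervals of Mef2a (0.12, -0.01 to 0.24), Irf5 (-0.17, -0.45 to 0.09) and Bach1 (0.07, -0.26 to 0.40) held 0. With free RNA subtracted none of the 5 stayed past 1.5-fold lower: Spi1 turned to 1.09 and Mef2c to 0.19, Irf8 stood at -0.51, and Sall1 and Maf had no ratio. Microglial RNA in these endothelial-like cells moved the same way, with the 12 microglia markers at 4294 CPM in the knock-out-labelled library against 11344 CPM in the wild-type library, none of them at 0.

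Set against the level in microglia-like cells of the same library, 4 of the 8 genes lay in endothelial-like cells within the range of the microglia markers in both libraries. Those 12 markers were at 6.87% to 16.96% of their microglia-like level in the knock-out-labelled library and at 17.9% to 49.5% in the wild-type library, lowest for Gpr34 in both. Spi1 was at 16.2% and 36.6%, Irf8 at 14.8% and 37.5%, Sall1 at 10.2% and 32.7% and Maf at 10.8% and 26.1% in the knock-out-labelled library and the wild-type library, all 4 inside the range in both. Mef2a was above the range in both, at 42.8% (39.5 to 46.4) and 66.0% (62.7 to 69.6). Mef2c (28.8%), Bach1 (28.7%) and Irf5 (20.9%) were above it in the knock-out-labelled library, while in the wild-type library Mef2c (47.5%) and Irf5 (31.6%) were inside it and Bach1 (49.5%, 43.2 to 56.6) lay at its upper end. The part of free microglial RNA in the levels of the first 4 genes was not tested beyond its subtraction, after which Sall1 and Maf were under 0 CPM in endothelial-like cells of both libraries.

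Pericyte or smooth muscle-like cells gave a second view of the same ranges. There the microglia markers were at 14.7% to 24.5% of their microglia-like level in the knock-out-labelled library and at 25.6% to 53.6% in the wild-type library. Mef2c was at 58.0% (52.2 to 64.2) and 79.5% (74.9 to 84.4) and Mef2a at 53.1% (46.2 to 60.7) and 73.5% (66.5 to 81.0), both above the range in both libraries. Maf was at 28.2% (22.0 to 35.6) and 44.1% (37.6 to 51.5) and Bach1 at 37.7% (25.7 to 53.6) and 52.6% (39.7 to 68.6), above the range in the knock-out-labelled library, though for Maf with an interval that reached into it, and inside it in the wild-type library. The other 4 genes were inside the range in both.

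**Figure D3:**
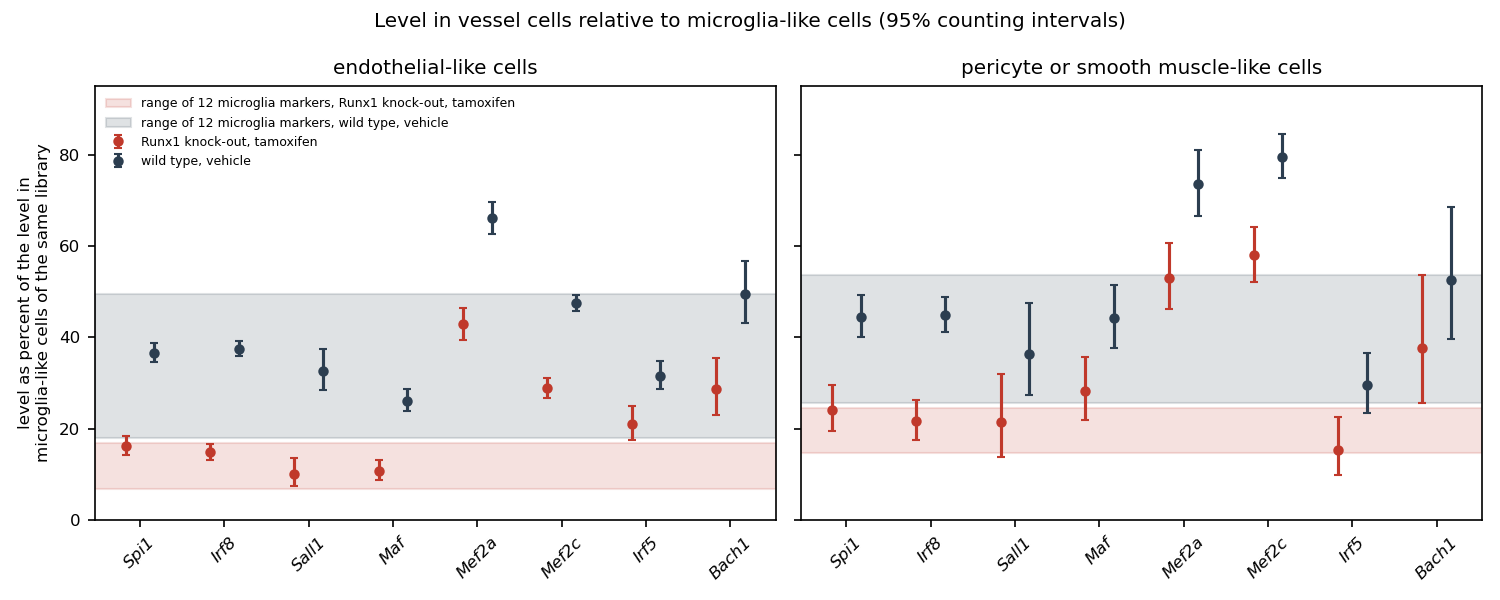
Level in endothelial-like (left) and pericyte or smooth muscle-like cells (right) as a percent of the microglia-like level in the same library, with 95% counting intervals; the shaded bands give the range of 12 microglia markers, red for the knock-out-labelled library and grey for the wild-type library. Mef2a lies above the band of its own library in both panels, and Mef2c does so in the right panel.

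Shares of cells with a UMI followed the levels. Cells were thinned to 1500 UMIs each, since the median microglia-like cell had 3471 UMIs in the knock-out-labelled library and 5530 in the wild-type library. Mef2a was then found in 48.1% (45.4 to 50.8) of the knock-out-labelled microglia-like cells and 31.6% (29.6 to 33.5) of the wild-type ones, beside unthinned shares of 76.6% and 75.1%. Maf was found in 32.0% (29.5 to 34.5) and 21.6% (19.9 to 23.4), Sall1 in 15.4% (13.5 to 17.4) and 9.69% (8.49 to 11.01) and Bach1 in 13.1% (11.3 to 14.99) and 6.63% (5.62 to 7.76). For these 4 genes the libraries lay further apart at equal depth than unthinned, where shares were 59.0% and 60.04% for Maf, 38.0% and 35.1% for Sall1 and 29.7% and 27.8% for Bach1. Irf8 was found in 51.0% (48.3 to 53.7) and 55.7% (53.6 to 57.8) of thinned microglia-like cells, Spi1 in 46.2% and 44.0%, Mef2c in 64.1% and 61.4% and Irf5 in 23.0% and 18.8%. Unthinned shares were 81.2% and 94.0% for Irf8, 75.8% and 87.9% for Spi1, 88.3% and 94.7% for Mef2c and 50.4% and 56.2% for Irf5.

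Endothelial-like cells gave the background for these shares, at median depths of 3588 UMIs in the knock-out-labelled library and 5957.5 in the wild-type library. Thinned shares there were 9.09% and 18.8% for Spi1, 10.3% and 25.6% for Irf8, 1.79% and 3.85% for Sall1, 3.95% and 7.26% for Maf, 5.26% and 5.80% for Irf5 and 2.87% and 4.40% for Bach1. Mef2a was found in 26.4% and 25.5% of them and Mef2c in 26.7% and 39.7%. A thinned microglia-like cell held UMIs of 2.93 of the 8 genes on average in the knock-out-labelled library and of 2.49 in the wild-type library, and 4 or more of them in 31.9% (29.4 to 34.5) and 19.5% (17.8 to 21.2) of cells. For endothelial-like cells the averages were 0.864 and 1.31.

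Within microglia-like cells, 6 of the 8 genes kept the library with the higher level across states. Clustering of each library alone, without the 8 genes, gave 2 groups of cells labelled knock-out and 3 labelled wild type. In the knock-out-labelled library 785 cells were led by the inflammatory genes Pim1, Cxcl2 and Il1b and 569 by Fcrl1, Slc2a5 and the purine receptor gene P2ry13. In the wild-type library 738 cells were led by Spp1, Cxcl2 and Il1b, 682 had Gpr34 and P2ry12 among their leading genes and 767 were led by Hspa1b and Hk2. Sall1, Maf, Mef2a, Irf5 and Bach1 were higher in both knock-out groups than in all 3 wild-type groups, and Irf8 was lower in both than in all 3. For Irf8 the interval of the knock-out P2ry13 group (521 CPM, 489 to 554) overlapped that of the wild-type Il1b group (527 CPM, 507 to 547), and for Irf5 both knock-out intervals overlapped that of the wild-type P2ry12 group (151 CPM, 138 to 166). Spi1 and Mef2c interleaved. The share of all genes that kept such an order across these groups was not counted, so the 6 genes cannot be called unusual in this.

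Bach1 differed most between states of 1 library. It was at 103 CPM (93.6 to 113) in the Pim1 and Il1b group labelled knock-out and 64.5 CPM (53.7 to 76.9) in the Slc2a5 and P2ry13 group, against 45.7 CPM (40.0 to 51.9) in the Spp1 and Il1b group, 38.9 CPM (32.3 to 46.5) in the Gpr34 and P2ry12 group and 57.7 CPM (52.4 to 63.4) in the Hspa1b group labelled wild type. The interval of the Slc2a5 and P2ry13 group thus overlapped that of the wild-type Hspa1b group. Spi1 ran the other way in the knock-out-labelled library, with 399 CPM (380 to 418) in the Il1b group and 471 CPM (441 to 502) in the P2ry13 group, and it was likewise lower in the wild-type Il1b group (357 CPM, 341 to 374) than in the wild-type P2ry12 group (431 CPM, 408 to 455). In the wild-type library the Spp1 and Il1b group had the lowest Maf, at 130 CPM (120 to 140) beside 197 and 195 CPM in the Gpr34 and Hspa1b groups, and the lowest Mef2c, at 584 CPM (563 to 605) beside 715 and 714 CPM. The knock-out groups showed no such gap, with 261 and 288 CPM of Maf and 703 and 732 CPM of Mef2c. In the wild-type Spp1 and Il1b group, Irf8 (527 CPM, 507 to 547) and Mef2a (229 CPM, 216 to 243) also lay below the other wild-type groups, without overlap of intervals. Spi1, Sall1 and Irf5 were lowest there too, with overlapping intervals, and Bach1 was not lowest.

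**Figure D4:**
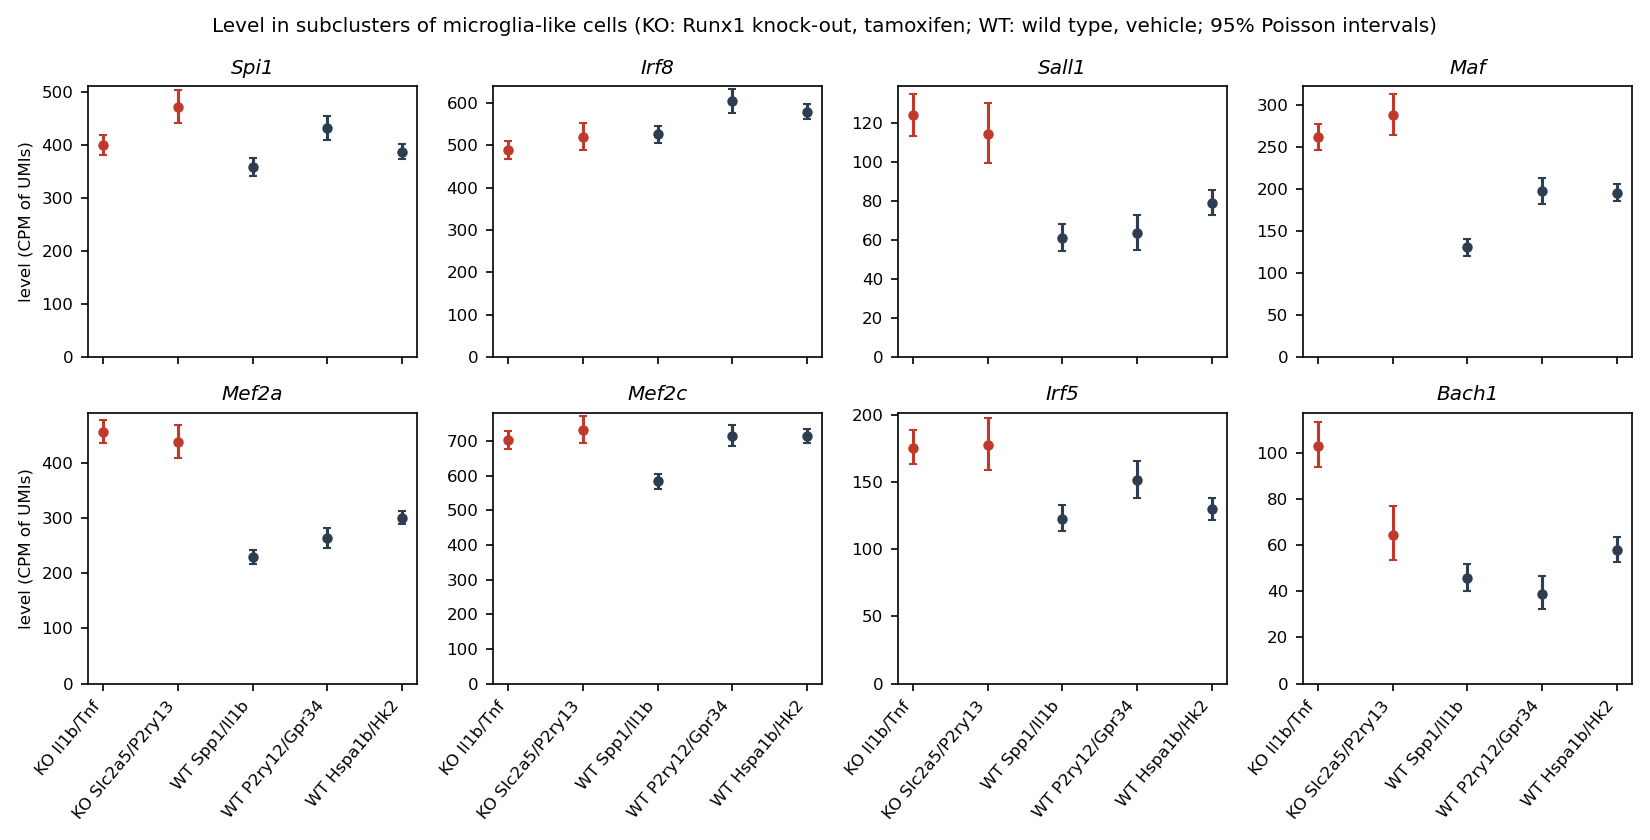
Level of each gene (CPM, axis from 0) in subclusters of microglia-like cells, 2 of the knock-out-labelled library (KO, red) and 3 of the wild-type library (WT, dark), named by leading genes, with 95% Poisson intervals. Both red points lie above all dark points for Sall1, Maf, Mef2a, Irf5 and Bach1, and below them for Irf8.

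Depth did not order these levels in the same way. When the microglia-like cells of each library were split by UMI total into 3 groups of equal number, Sall1 was at 105, 110 and 130 CPM from the lowest to the highest group in the knock-out-labelled library and at 58.5, 65.9 and 75.1 CPM in the wild-type library, so deeper cells had the higher level in both. Irf5 was at 185, 181 and 172 CPM in the knock-out-labelled library and at 151, 144 and 121 CPM in the wild-type library. Mef2a was at 470, 447 and 447 CPM and at 264, 252 and 280 CPM, and Bach1 at 85.9, 97.2 and 89.5 CPM and at 42.4, 49.6 and 52.5 CPM. For these 4 genes and for Maf every depth group labelled knock-out was higher than every one labelled wild type. The share of all genes with this order was not counted, so it is not known to be particular to them. In cells of 3000 to 6000 UMIs, a window chosen after seeing the data, 3 of the 8 genes were past 1.5-fold higher, namely Sall1 (0.81), Mef2a (0.75) and Bach1 (1.05), with Maf at 0.57, beside 9.2% higher and 14% lower of all genes.

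The relatives of the 8 factors were read from lists of families. Among 7 measured MAF and CNC-BACH factors, 4 were past 1.5-fold higher in microglia-like cells of the knock-out-labelled library and 0 lower, with a median log2 ratio of 0.59. Without Maf and Bach1 these were 2 of 5, with a median of 0.41. Maff, a small MAF partner of BACH1, was at 90.1 and 40.9 CPM (1.14), Mafg at 133.5 and 89.0 CPM (0.59), Mafk at 42.4 and 32.0 CPM (0.41), and Maf and Bach1 were the other 2 past 1.5-fold. The MEF2 family had 2 of 3 higher, with Mef2d at 33.2 and 21.6 CPM (0.62). In the SALL family Sall3 was at 85.9 and 57.3 CPM (0.58), just short of 1.5-fold, beside Sall1.

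The IRF and ETS families leaned less or the other way. Of 7 measured IRF genes 0 were higher and 2 lower, with a median of -0.18, or -0.52 over the 5 genes other than Irf8 and Irf5. Irf7, an inducer of interferon genes, was at 27.3 and 45.4 CPM (-0.73), Irf9, a part of the interferon-activated complex ISGF3, at 32.2 and 49.0 CPM (-0.60) and Irf3 at 41.0 and 58.7 CPM (-0.52). Endothelial-like cells held more of the first 2, with 139.6 and 94.3 CPM of Irf7 and 87.9 and 74.9 CPM of Irf9. Not all relatives were lower: Irf1 was at 94.2 and 68.5 CPM (0.46, 0.31 to 0.61) in microglia-like cells and Irf2 at -0.01 (-0.15 to 0.12). Both are named after their values were seen. Of 10 ETS genes 1 was higher, Etv5 (0.63), and 1 lower, the endothelial factor Erg (-0.87), which had 127.5 and 100.5 CPM in endothelial-like cells. Elk3, next by size, was at 0.39, and the list median was 0.16. Of 19 other measured microglial and myeloid factors 6 were higher and 0 lower, with a median of 0.40. They were led by Cebpb, a factor of macrophage activation, at 1133 and 219 CPM (2.37), Runx1 (0.96) and Tal1 (0.94).

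Genes that the 8 factors are known to control were read from 5 lists, and the median of each lay above 0, between 0.19 and 0.42. Of 10 measured PU.1 target genes 2 were past 1.5-fold higher and 1 lower, with a median of 0.26. Csf1r, the receptor for the microglial growth factors, was at 2146 and 1339 CPM (0.68), the integrin gene Itgam at 380 and 185 CPM (1.04) and Cybb, the catalytic part of the phagocyte oxidase, at 6.18 and 20.4 CPM (-1.72). Of 9 genes of the IRF8 and IRF5 axis, which include Irf8 and Irf5, 2 were higher and 1 lower, with a median of 0.34: the purine receptor gene P2ry12 (0.87) and Itgam (1.04) were higher and the protease gene Ctss (-0.65) was lower. P2rx4, a further purine receptor gene of this list named after its value was seen, was at 70.7 and 87.2 CPM (-0.30). Of the 9 genes, 6 were above 0. Of 9 SALL1-dependent identity genes 1 was higher (P2ry12) and 1 lower, the matrix gene Olfml3, at 306 and 1111 CPM (-1.86). Siglech, a microglial lectin gene, was at -0.39 and the list median at 0.19.

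Genes that BACH1 represses were split. Of 7 measured, 2 were higher and 2 lower, with a median of 0.22. Hmox1, which encodes heme oxygenase and is the best known of them, was at 348.5 and 196 CPM (0.83), Gclc, for the catalytic part of the enzyme that starts glutathione synthesis, was at 21.1 and 13.4 CPM (0.66), and Slc48a1, a heme transporter gene, at 41.0 and 64.6 CPM (-0.66). The other lower one was Gclm (-0.63), the partner subunit of Gclc, named here after its value was seen. The ferritin genes Fth1 and Ftl1, seen likewise, were at 0.22 and 0.32. Of 5 MEF2 target genes 2 were past 1.5-fold higher and 0 past 1.5-fold lower, with a median of 0.42. The higher ones were the activity-induced factors Nr4a1 at 341 and 122 CPM (1.48) and Egr1 at 778 and 422 CPM (0.88), and Jun was at 0.42. Klf2 (-0.32, -0.35 to -0.28) and Klf4 (-0.10, -0.18 to -0.01), named here after their values were seen, were below 0 and short of 1.5-fold. These lists were chosen with earlier results of these libraries known, and their counts are a description beside the 8.1% and 12.5% given for all genes. The 402 other genes microglia-enriched in each library had 23.4% higher and 1.74% lower, with a median of 0.30. The medians of the 5 target lists lay on both sides of that value.

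**Figure D5:**
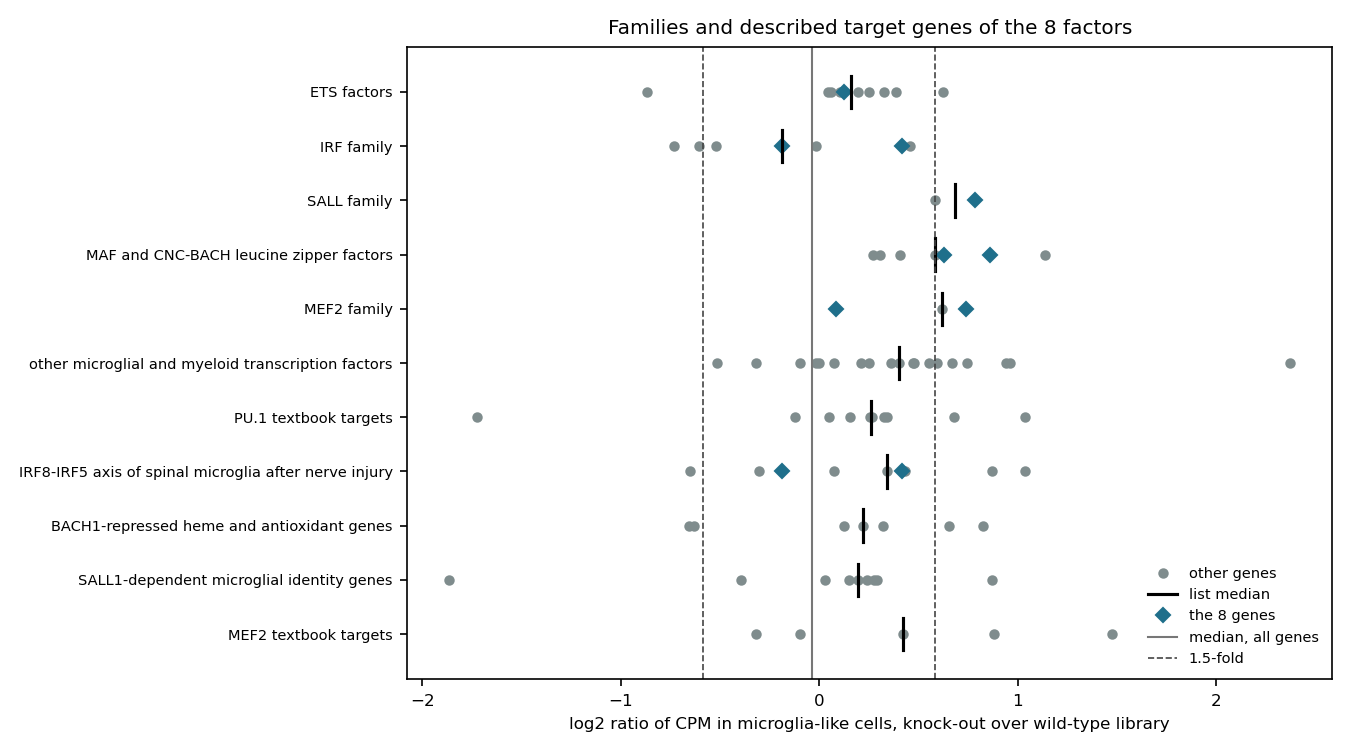
Log2 ratio of CPM in microglia-like cells, knock-out over wild-type library, for every measured gene of 11 lists; diamonds are the 8 genes, black bars list medians, the grey line the median of all genes (-0.04) and dashed lines 1.5-fold. The medians of the MAF and CNC-BACH (0.59) and MEF2 (0.62) families lie to the right of that line, and the median of the IRF family (-0.18) lies to its left. These medians include the diamonds. Without them the MAF and CNC-BACH median was 0.41 and the IRF median -0.52, and Mef2d alone was left in the MEF2 family.

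The genes with the most similar pattern were named by Pearson correlation of log2(CPM + 5) over the 10 class and library profiles of at least 50 cells, among 7491 genes. The profiles come from 2 libraries and share free RNA, so these values describe patterns only. Spi1 was most like Itgb5 (0.996), Cyth4 and C1qc, and Irf8 most like Ltc4s (0.998), Cd52 and Creg1. Sall1 was most like Slc15a3 (0.992), Npc1 and Nav3, Maf most like Marcks (0.994), Cebpa and Plxdc2, and Bach1 most like Cpeb2 (0.994), Rnase4 and Golm1. Irf5 was most like Id2 (0.990), Tifa and Dnase2a, and Mef2c most like Oxct1 (0.992), Zeb2 and Snx18. Mef2a was most like Zfp706 (0.988), Hsp90aa1 and Pmepa1.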

How the data were processed

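The deposited matrices held raw UMI counts per gene and barcode, with 1 library per group. Cell Ranger 2.0.1, STAR, Seurat 2.1.0 and the builds GRCm38.p5 and mm10 are named, with no role or order, per the submitters' processing notes. The sources used here do not give how barcodes were kept or on which strand reads were counted. Spinal cords were digested with collagenase (2 mg/ml, 37 °C, 30 min), per the labels' protocols.

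Barcodes needed 300 genes or more and no more than 10% mitochondrial UMIs, which left 2596 of 2604 in the knock-out-labelled library and 4582 of 4582 in the wild-type library, beside 2600 and 4500 recovered cells in the labels. Both libraries were clustered together in scanpy 1.11.5, on 2000 variable genes without the 8 genes, Runx1 and sex-linked genes, with 30 components, 15 neighbours and Leiden resolution 0.5. Clusters were named from 21 marker lists. The scoring followed an earlier treatment of these data: a name needed 3 counted markers and 50% of its list, with no rival at 60% of its share unless its markers stood among the top 10 genes. Doublets were called in an alternative alone.

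UMI counts were summed per class and library and scaled to CPM, with exact Poisson intervals. Log2 ratios carry the exact conditional binomial interval, shares of cells the Clopper-Pearson interval. UMIs are molecules, and the intervals leave out variation between animals and libraries. A gene was called past 1.5-fold if it had at least 20 CPM in 1 library. The free RNA subtraction removed the make-up of the whole library, with a share set by the markers of the other large class. The calculation was tested on simulated Poisson counts without variation between cells or libraries and without free RNA, so only its arithmetic was checked. Named genes were the 8 genes, up to 3 further genes of each of 11 lists with the largest absolute log2 ratio, and the 3 genes most like each of the 8. List genes named after their values were seen are marked as such in the text. Some results are not reported here. The 8 genes, lists and markers were chosen with earlier results of these data known. Positions are from GENCODE M21 on GRCm38, which held 27645 of the 27998 gene identifiers.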

Additional observations from a re-analysis of the deposited data

Results flagged for a closer look

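For 4 of the 8 genes the difference between libraries lay on opposite sides of 0 in the 2 large classes, higher in microglia-like and lower in endothelial-like cells of the knock-out-labelled library. The microglia-like log2 ratio minus the endothelial-like log2 ratio was 1.68 for Sall1, 1.27 for Maf, 1.18 for Spi1 and 0.72 for Mef2c. With 1 library per group these differences were not tested. The share of all genes, or of other microglial genes, on opposite sides of 0 was not counted either, so the 4 genes cannot be called unusual. With free RNA subtracted, Spi1 was at -0.13 in microglia-like and 1.09 in endothelial-like cells and Mef2c at -0.11 and 0.19. The order thus turned for both, and Sall1 and Maf had no endothelial-like ratio. The endothelial-like Spi1 ratio came from 17.4 CPM in the knock-out-labelled library and 8.19 CPM in the wild-type library, near the 5 CPM minimum. The 12 microglia markers in endothelial-like cells were at 4294 CPM in the knock-out-labelled library and at 11344 CPM in the wild-type library, and the 9 endothelial markers in microglia-like cells at 2131 and 6464 CPM.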

How the results depend on the processing

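No paired analysis was possible because each group had 1 library and the labels give no replicate numbers. For the same reason no library could be left out. The log2 ratios of Sall1, Maf, Mef2a and Bach1 in microglia-like cells stayed above 0 under all 14 alternatives, and past 1.5-fold in 11, 10, 12 and 12 of them. They ranged from 0.48 to 0.93 for Sall1, 0.32 to 0.71 for Maf, 0.43 to 0.84 for Mef2a and 0.55 to 1.05 for Bach1. Irf5 ranged from 0.11 to 0.47 and Irf8 from -0.49 to -0.13. Spi1 (-0.18 to 0.18) and Mef2c (-0.22 to 0.13) were below 0 in 3 alternatives, the subtraction of free RNA and the totals over genes microglia-enriched in either or in each library. Of the 8 genes, 2 were past 1.5-fold higher with free RNA subtracted, 0 with either microglia-enriched total and 0 past 2-fold. Over all genes, the counts of 466 higher and 719 lower became 622 and 350 with free RNA subtracted (11.8% and 6.62%), 172 and 1554 with the total over genes enriched in either library, 155 and 1674 with that over genes enriched in each, 827 and 1374 at a minimum of 5 CPM, 2178 and 2968 at 1 UMI in each library, and 103 and 311 past 2-fold. The last 3 follow from the minimum or fold itself, and for the others the cause was not tested. In endothelial-like cells Spi1 turned to 1.09 and Mef2c to 0.19 with free RNA subtracted, and 3 genes under the 5 CPM minimum in either library then had no ratio. The Spi1 value came from 17.4 and 8.19 CPM, near that minimum. The cells of 3000 to 6000 UMIs and the microglia-enriched totals were chosen after seeing the data. Sall1, Irf5 and Bach1 outside microglia-like cells rest on few UMIs, and depth limits what their shares can show.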
